A study of Apis mellifera with 20 samples.

Results

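The 29 gene models described here had a fairly steady transcript level in honeybee larvae, by the values as deposited. They were enriched by the m6A pulldown at instars 1 and 3, and at instar 5 when queens and workers were summed. In instar 5 queens alone, 8 of the 29 reached the limit set for that sum. Without replicate 2 of instar 5 workers, 13 of the 29 reached that limit, against 28 or 29 when any other instar 5 replicate was left out. They were picked from 15314 models by measured values, as FPKM, a fragment count set against model length and the total of mapped fragments. A model was taken when its genomic span was under 64 kb, all 10 input libraries had at least 2 FPKM, and the highest of the 5 input group means was under 3 times the lowest. In addition, the IP/input ratio (pulled-down over input FPKM, for libraries with the same number in their titles) was at least 4 in all 6 pairs of instars 1 and 3, and the summed IP over the summed input of the 4 pairs of instar 5 was at least 2. The first 3 conditions left 3262 stable models, the early ratio left 51, and the instar 5 ratio left 29. Because the ratios and the input levels chose these models, their levels, and the differences between stages that the rule used, are given below as a description. Tests are kept to differences on which the rule set no direct limit, though its floors bear on them. The word "kept" holds for them only in part. The summed instar 5 ratio was 10.2% to 56.6% of the geometric mean of the 6 earlier ratios, with a median of 34.5%. Without replicate 2 of instar 5 workers this median was 26.4%. In the 22 models that failed only the instar 5 condition, the share over all 4 pairs was 10.9% to 39.9%, with a median of 24.9%. The instar 5 floor parted these sets, so nothing is read from their gap.

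N6-methyladenosine (m6A) is a methyl group added to adenosines inside messenger RNA by a methyltransferase complex, and reader proteins that bind it can alter splicing, translation or decay of the transcript. In m6A immunoprecipitation followed by sequencing, RNA fragments are pulled down with an antibody to m6A, and a transcript with many methylated fragments has more reads in the pulldown than in untreated fragments. Honeybee queens and workers are female castes that arise from alike eggs on different larval diets.

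The study made 20 libraries from larvae of Apis mellifera, with no tissue or organ named. They were larvae of instar 1 (L1), whose caste is not yet set, and larvae of queens and of workers at instars 3 (L3) and 5 (L5). Each of these 5 kinds has 2 IP libraries, made with an m6A antibody from Synaptic Systems, and 2 input libraries of fragmented polyadenylated RNA that saw no antibody. The number of larvae in a sample is not in the labels, nor is it said whether replicates are separate collections. The p-values therefore reflect the spread between these samples alone, which may be technical. None of the libraries is a pulldown without the m6A antibody, so the ratio is not a measured m6A level, and a ratio over a whole model cannot show single sites. In bulk RNA of larvae, fewer cells of a type and less RNA per cell cannot be told apart.

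The tables name the models only by IDs starting with GB. None of the 29 matched the RefSeq table of assembly Amel_HAv3.1 (0 of 15314 IDs in all), so no gene name, function or sequence is given, the tissue cannot be checked against marker genes, and coordinates are those of the deposited tables, whose genome build is not given in the sources used here. Read depth is unknown, as FPKM was the value in every table. The libraries differ in ways that touch the ratio: 1 model, GB43330, took 34.5% to 47.7% of the summed FPKM of the earlier IP libraries and 9.56% to 12.4% of their inputs, but at most 0.781% of any L5 library. Over the 8490 tested models above 0 in every library, the median ratio was 0.573 to 0.745 in the L1 and L3 pairs and 0.987 to 1.19 in the L5 pairs. The L5 inputs listed 4292 to 5430 models at 0 and the other inputs 2993 to 3822. The part of either difference in the ratios of the 29 models was not tested.

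At L1 and L3 the ratios of the 29 models were high and close together. Their median was 6.57 and 6.18 in the L1 pairs. It was 7.26 and 6.40 in the queen pairs of L3, and 8.09 in both worker pairs. For a given model the highest of these 6 ratios was 1.12 to 2.44 times the lowest, with a median of 1.45, and it was under 2 times the lowest for 27 of the 29. The pairs also ranked the models alike: Spearman's rho between pairs, across the 29 models, which share their libraries, was 0.759 to 0.943 among the L1 and L3 pairs. Divided by the scaling factors that set the typical model alike in all libraries, the medians were 9.16 to 10.3.

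At L5 the ratios were lower, and 1 library pair stood apart. The median was 1.51 and 2.22 in L5 queens and 2.22 in L5 worker replicate 1, but 5.79 in L5 worker replicate 2. This last pair held the highest L5 ratio for 26 of the 29 models, against 35.3% of all stable models. The L5 condition used these ratios, so nothing is read from that gap. Among the 22 models that failed only the L5 condition, the same pair was highest in 19. L5 queen replicate 1 held the lowest for 24 of the 29. All 29 were at 2 or more in L5 worker replicate 2, against 4 in L5 queen replicate 1, 18 in L5 queen replicate 2 and 21 in L5 worker replicate 1. Among the L5 pairs rho was only 0.194 to 0.541, and between L5 pairs and earlier ones it was 0.198 to 0.515. After scaling, the L5 medians were 1.59, 2.01, 1.90 and 4.93 in the same order, with L5 worker replicate 2 still the highest. The models at 2 or more were then 5 and 15 for the queen pairs against 13 and 28 for the worker pairs, so L5 worker replicate 1 stood below queen replicate 2.

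**Figure D1:**
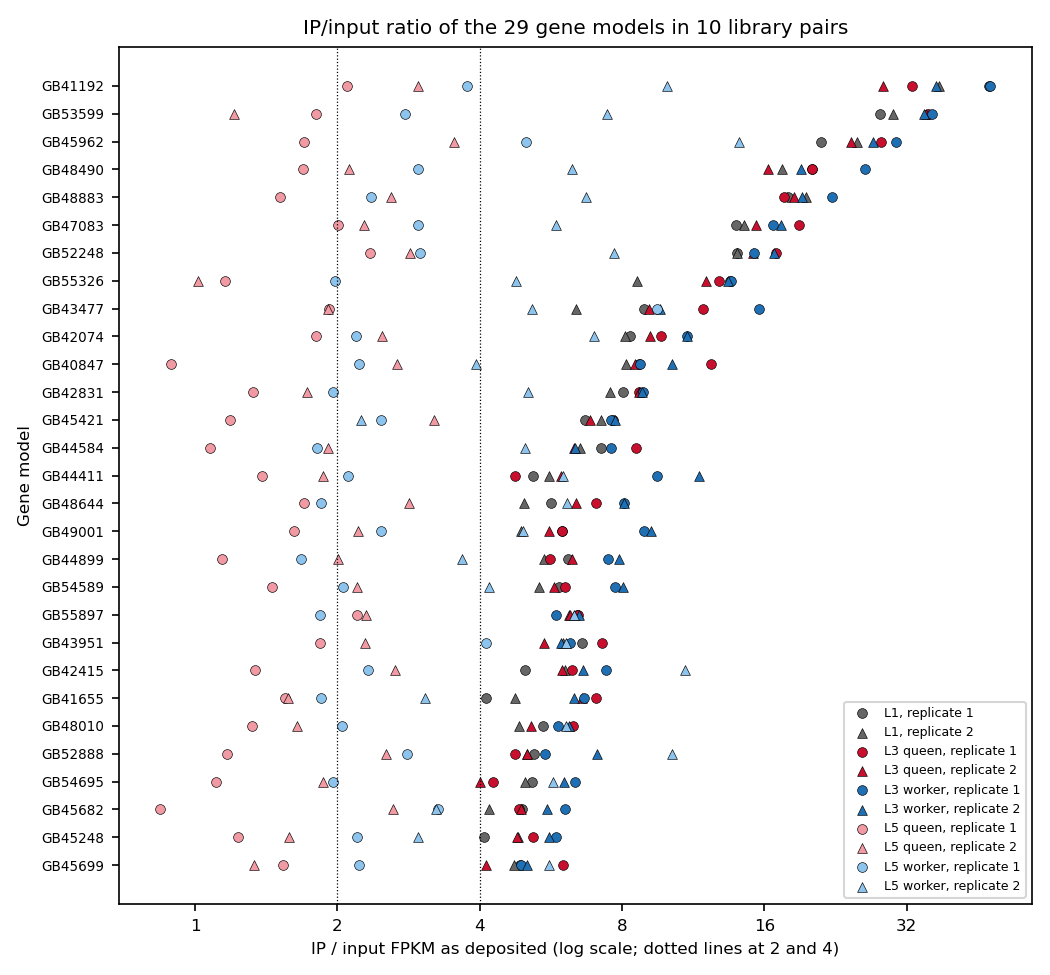
IP/input ratio of FPKM as deposited (log scale) for each of the 29 gene models, 1 row a model, in 10 library pairs. Colours mark the kind of larva and symbols the replicate number. The 6 L1 and L3 ratios of a row lie close together at 4.01 or more, and L5 worker replicate 2 lies to the right of the other L5 pairs in 26 rows.

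How many of the 29 met the L5 condition thus depended on that pair. Without it, the summed L5 ratio was at least 2 for 13 of the 29 and between 1.49 and 3.18 over all of them, with a median of 1.98. Leaving out L5 queen replicate 1, L5 queen replicate 2 or L5 worker replicate 1 instead left 29, 28 and 28. Taken by caste, the summed ratio was at least 2 in workers for all 29 and in queens for 8. In the single pairs, 3 models were at 2 or more in all 4 L5 pairs, 13 in 3, 8 in 2, and 5 in L5 worker replicate 2 alone. The other 3 L5 pairs lay below every L1 and L3 pair for 28 of the 29 models, whereas L5 worker replicate 2 reached or passed the lowest earlier pair for 10 of them.

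The pulled-down RNA moved far more than the input. Summed over the 29 models, IP was 4717 and 5435 FPKM at L1, 5755 and 5597 in queens of L3, and 4563 and 4611 in workers of L3. At L5 it was 644 and 799 in queens against 996 and 1888 in workers. The 4 L5 libraries were all below the 6 earlier ones, and L5 worker replicate 2 was the highest of the 4. The summed input was 507 and 561 FPKM at L1. In queens it was 519 and 559 at L3 and 443 and 389 at L5, and in workers 386 and 412 at L3 and 431 and 341 at L5. Here the stages overlapped. The L5 worker library that stood apart had both the highest L5 sum in IP and the lowest in input.

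**Figure D2:**
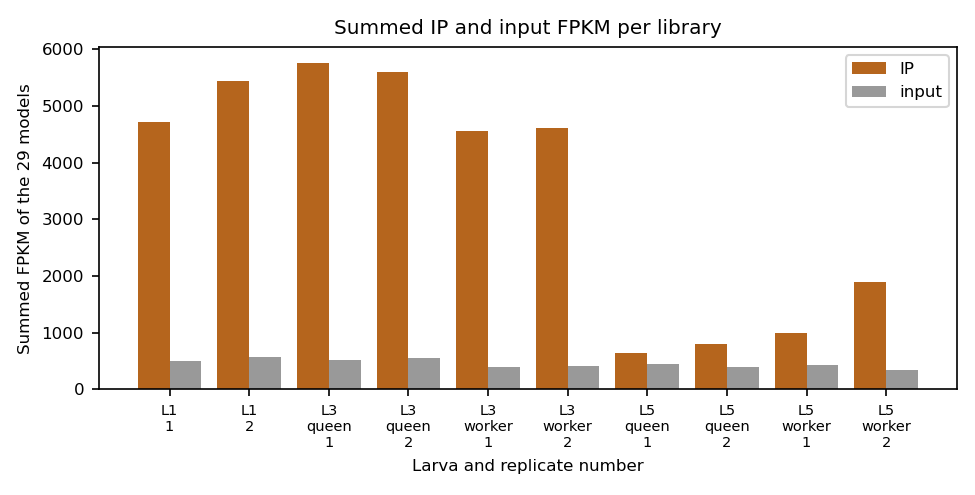
Summed FPKM of the 29 gene models in each IP and input library, by larva and replicate number, as deposited. The IP bars stand at 4563 to 5755 for L1 and L3 and at 644 to 1888 for L5, while the input bars stay between 341 and 561. The rule limited the input range and set a lower ratio floor at L5, which favours this picture.

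The 29 spread over a wide range of early ratios. By the geometric mean of the 6 L1 and L3 pairs, 8 models lay between 12.2 and 37.9 and the other 21 between 4.92 and 9.89. The 8 were GB41192, GB53599, GB45962, GB48490, GB48883, GB47083, GB52248 and GB55326. Across the 29 models, the early ratio and the summed L5 ratio went together loosely (Spearman's rho 0.551, and 0.454 without L5 worker replicate 2), while the early ratio and mean input did not (rho 0.0985). These points share their libraries, and the rho values are descriptions only.

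GB41192 (Group15.3, 256075 to 256931, minus strand) had the highest early ratio. Its IP values were 359 and 438 FPKM at L1, and at L3 343 and 346 in queens with 350 and 345 in workers, against inputs of 7.27 to 12.1, which gave ratios of 28.6 to 48.1. At L5 its IP was 19.1 and 15.8 in queens and 24.6 and 74.6 in workers, against inputs of 5.35 to 9.11. All 4 L5 ratios were at least 2 (2.098 and 2.96 in queens, 3.76 and 9.95 in workers). The pulled-down signal was thus far lower at L5 in all 4 libraries, while the input ranges of the stages overlapped.

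GB53599 (Group10.10, 247388 to 250313, plus strand) had early ratios of 28.1 to 36.3 and the smallest share left at L5, 10.2%. Its IP was 296 to 765 FPKM at L1 and L3, and at L5 15.0 and 10.5 in queens with 23.8 and 67.3 in workers. Input was 9.28 to 21.5 FPKM early and 8.29 to 9.05 at L5. Without L5 worker replicate 2 its summed L5 ratio was 1.93, so it passed the L5 condition through that pair. It lies inside GB53588 on the other strand, which had at most 0.621 FPKM in any input.

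GB45962 (Group16.8, 103048 to 104469, plus strand) had the highest summed L5 ratio, 5.34. Its ratios were 21.1 and 25.1 at L1. In queens they were 28.2 and 24.4 at L3 and 1.70 and 3.52 at L5, and in workers 30.4 and 27.2 at L3 and 5.01 and 14.1 at L5. Both L5 worker pairs lay above both queen pairs, and L5 worker replicate 2 lay below all earlier pairs. IP was 375 to 636 FPKM at L1 and L3, and at L5 27.0 and 24.8 in queens with 57.3 and 119 in workers.

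GB52248 (GroupUn104, 89954 to 92916, plus strand) and GB47083 (Group15.2, 319972 to 381367, minus strand) were, with GB41192, the models at 2 or more in every pair. GB52248 had L5 ratios of 2.34 and 2.85 in queens and 2.99 and 7.69 in workers, after 14.0 to 16.9 in the earlier pairs. GB47083 had L5 ratios of 2.01 and 2.28 in queens and 2.96 and 5.79 in workers, after 13.9 to 18.9. In these 3 models the L5 ratio of at least 2 did not depend on any single pair.

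GB52888 and GB43951 held the largest shares of their early ratio. Their geometric mean early ratios were 5.39 and 6.22, where the median was 6.71. The floor on the summed L5 ratio sets a higher lowest share for a lower early ratio, so nothing is read from this. The models with the lowest early ratios, GB45699 (4.92) and GB45248 (5.02), held 41.7% and 41.1%. GB52888 (GroupUn81, 43263 to 44094, plus strand) had early ratios of 4.76 to 7.10 and L5 ratios of 1.17 and 2.53 in queens and 2.80 and 10.2 in workers, so its summed L5 ratio was 56.6% of the early one. Without L5 worker replicate 2 that summed ratio was 2.09 in place of 3.05. GB43951 (Group11.3, 189126 to 190216, minus strand) had 5.47 to 7.26 early and 1.84 and 2.29 in L5 queens against 4.12 and 6.08 in L5 workers, a share of 54.7%. GB43951 was above 4 in both L5 worker pairs, and GB52888 in replicate 2 alone.

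The replicates of L5 workers could differ widely. GB42415 (Group7.21, 1542385 to 1544516, minus strand) had the widest gap, 2.32 against 10.9, with IP at 13.4 and 22.6 FPKM and input at 5.77 and 2.08. Its input in replicate 2 was the closest of all 29 models to the limit of 2 FPKM. The difference between L5 worker replicates over the 29 models had a median of 1.36 log2 units, against 0.47 in L5 queens. Taking the larger of the gaps in the 2 castes, GB45248 (Group11.18, 4164226 to 4177750, plus strand) had the smallest, with ratios of 1.23 and 1.58 in queens and 2.20 and 2.97 in workers.

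The most abundant of the 29 were GB42831 (Group9.10, 1947100 to 1949141, plus strand) and GB42074 (Group5.11, 591462 to 593293, plus strand), with mean inputs of 54.8 and 51.0 FPKM. Pulled-down GB42831 stood at 385 to 598 FPKM before L5, and at L5 at 73.9 and 66.8 in queens with 111 and 149 in workers. Its L1 and L3 ratios were 7.55 to 8.87 and its L5 ratios 1.33, 1.73, 1.96 and 5.07, so only L5 worker replicate 2 was above 2. GB42074 had 356 to 741 FPKM in IP early and 96.4, 111, 104 and 191 at L5, and its summed L5 ratio was 2.14 without L5 worker replicate 2. The least abundant were GB55897 (GroupUn135, 4017 to 9729, plus strand) and GB45421 (Group6.37, 361361 to 365923, plus strand), with mean inputs of 4.82 and 4.84 FPKM. GB45421 was the 1 model with its highest L5 ratio in queens, 3.20 in queen replicate 2, against 1.19 in replicate 1 and 2.48 and 2.25 in workers.

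GB43477 (Group2.7, 860358 to 860441, plus strand) spans 84 bases, the shortest of the 29. FPKM is set against model length, so all its values, here and below, rest on very few bases and are uncertain. Its input was 3.69 and 7.27 FPKM in the replicates of L3 queens and 2.54 and 8.27 in those of L5 workers. Its L5 worker ratios were 9.48 and 5.16 against 1.92 and 1.91 in queens. The next shortest was GB44584 (Group5.14, 672607 to 673331, plus strand), with 725 bases. Its IP in L5 worker replicate 2 was 222 FPKM, above the 106 to 178 of its L1 and L3 libraries, while its input there, 44.4 FPKM, was also the highest of the 10.

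The limits of the rule cut through a continuous range. The lowest early ratio was 4.01 for GB54695 and 4.09 for GB45248 just inside, and 3.88 for GB51903 and 3.74 for GB44428 just outside. The summed L5 ratio was 2.001 for GB41655 and 2.05 for GB45699 inside, and 1.98 for GB50640 and GB52173 outside. For the input fold the values were 2.96 for GB43477 and 2.89 for GB52248 inside and 3.02 for GB55291 and 3.03 for GB50361 outside, and 41 models failed that condition alone. A further 45 failed only the early ratio, 22 only the L5 ratio and 11 only the input minimum, where GB42415 with 2.08 FPKM and GB55897 with 2.18 lay inside and GB46948 with 1.63 and GB47820 with 1.42 outside. GB47083, with 61396 bases, was the longest inside the span limit, and the next, GB44899, had 15326.

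The plot of early against L5 ratios sets the 29 beside the 22 models that met every other condition but had a summed L5 ratio under 2. Those 22 had early ratios of 4.52 to 17.9 with a median of 5.84, against 6.71 for the 29, and L5 ratios of 1.05 to 1.98. The same L5 library stood apart in them: L5 worker replicate 2 had their highest L5 ratio in 19 of 22, and a median ratio of 2.76 against 1.09, 1.53 and 1.54 in the other L5 pairs. Without this pair the ranges of both sets overlapped, at 1.49 to 3.18 and 0.894 to 1.87. Their summed IP was 3088 to 4637 FPKM in the earlier libraries and 648 to 1066 at L5.

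**Figure D3:**
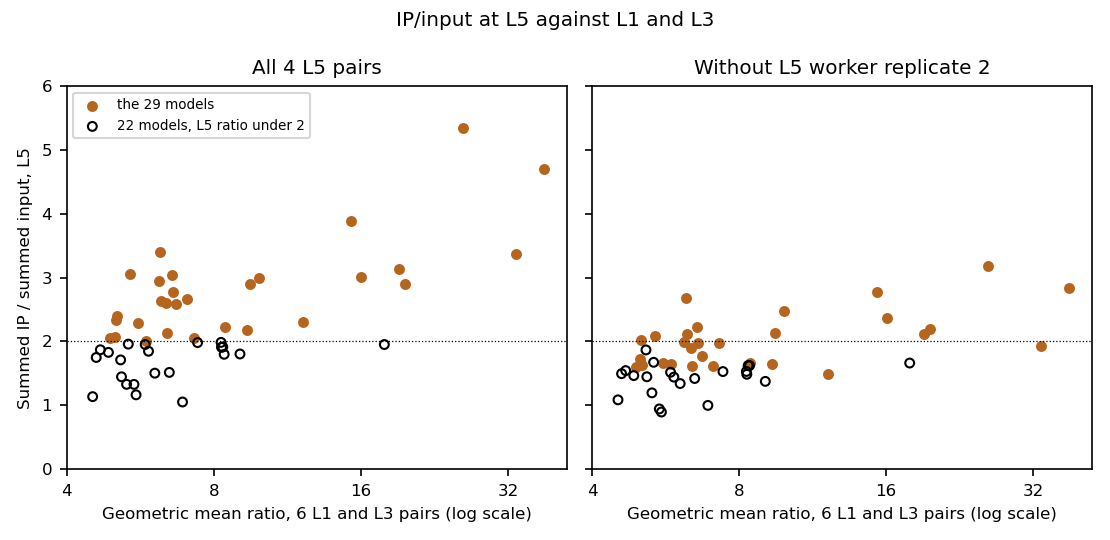
Summed IP over summed input at L5 against the geometric mean ratio of the 6 L1 and L3 pairs (log scale), for the 29 models (filled) and the 22 with an L5 ratio under 2 (open), with all 4 L5 pairs at left and without L5 worker replicate 2 at right. At left the dotted line at 2 divides the sets by construction, and at right 13 of the 29 filled points stay above it.

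In structure the 29 were short to middling models. Their median span was 2132 bases, against 5076 for the 22, 3009 for all stable models and 3282 for the 10391 models tested for m6A enrichment. Spans of 1 to 4 kb made up 16 of the 29, against 54.7% of the stable models, and spans under 1 kb made up 6, against 9.10%. Of the 29, 19 lay on the plus strand (51.3% of stable models) and 5 on unplaced scaffolds (8.03%). They lay on 26 scaffolds, none was next to another, and the closest were 113020 bases apart on Group11.18. No test was made of these shares, which are given beside the same shares of the other models.

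Of the nearest models on either side, 38 had a mean input of at least 2 FPKM, and 36 of them had a ratio above 0 in all 6 early pairs. Of these 36, 1 had an early ratio of 4 or more and 2 had 2 or more. The shares were 3.56% and 11.8% of all 9135 models with that mean input and an input above 0 in the 6 early pairs. Among the 9135 a model with an IP of 0 was kept at a ratio of 0, while the 36 leave such models out. The neighbour at 4 or more, GB42832 (Group9.10, 1950191 to 1955533, plus strand), starts 1049 bases after GB42831. It had ratios of 6.57 to 9.11 at L1 and L3 and of 2.05, 3.03, 2.62 and 6.52 at L5, but its input ranged from 29.1 to 152 FPKM, which kept it outside the stable models. GB40847 (Group1.10, 1110705 to 1114148, plus strand) begins 50 bases after GB40846, whose IP was 912 to 1185 FPKM before L5 and 68.5 to 401 at L5, but which was listed at 0 in 2 inputs and so is not among the 36. Its ratio was 21.5 to 31.0 in the 5 early pairs with an input value. GB40847 itself had early ratios of 8.14 to 12.3 and L5 ratios of 0.891, 2.68, 2.22 and 3.93.

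The NEBNext Ultra RNA kit of the labels does not keep strand, so reads in the shared stretch of overlapping models cannot be told apart, and 6 of the 29 overlap another model: GB53599, GB45248, GB44899, GB41655, GB44411 and GB42415. The overlapped models did not share the enrichment where they had input to measure. GB44411 (Group5.14, 2652977 to 2659754, minus strand) had ratios of 4.76 to 11.6 at L1 and L3, while GB44707, on the other strand across its right end, had 0.0683 to 0.264. GB44899 (Group11.18, 4290771 to 4306096, minus strand) had 5.47 to 7.87, and GB45260, on the other strand, 0.989 to 1.41. The partners of the other 4 models had at most 1.55 FPKM in any input.

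Expression, the input level, was chosen to be steady and is given with no test. The median input of the 29 was 11.8 and 15.4 FPKM at L1. In queens it was 13.4 and 13.6 at L3 and 11.0 and 10.3 at L5, and in workers 9.48 and 9.96 at L3 and 10.6 and 7.84 at L5. The highest group mean was 1.46 times the lowest for GB40847 and 2.96 times for GB43477, with a median of 2.23. By FPKM as deposited the highest mean lay at L1 for 11 models and in L3 queens for another 11, and the lowest in L5 workers for 12. This order turned with scaling to the typical model: the highest mean then lay at L1 for 0 models and in L3 workers for 13, and the lowest at L1 for 13. After scaling the fold was under 3 for 24 of the 29, and it reached 4.50 for GB44584, whose deposited input was 14.7 and 19.6 FPKM at L1 and 40.8 and 44.4 in L5 workers.

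**Figure D4:**
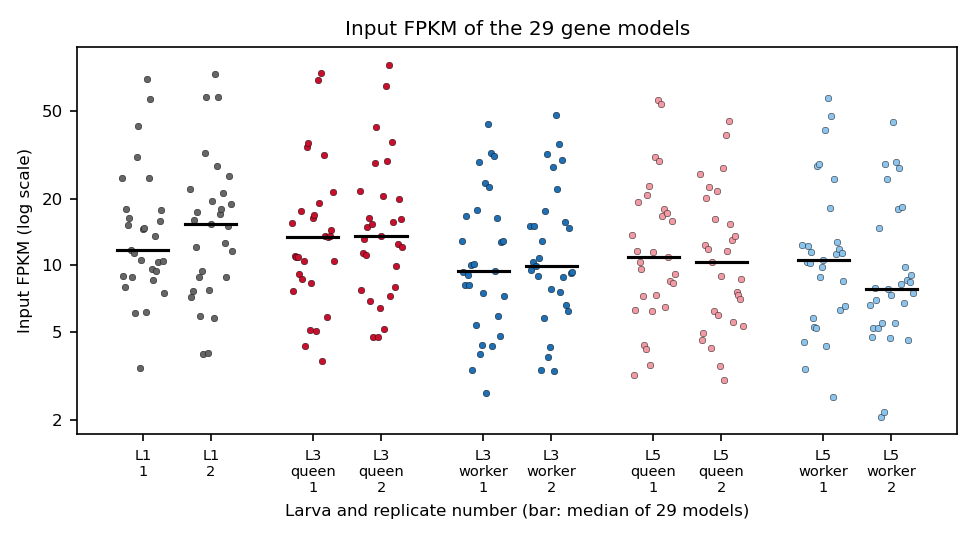
Input FPKM as deposited (log scale) of the 29 gene models in each input library, by larva and replicate number, 1 point a model, with a bar at the median. The medians lie between 7.84 and 15.4 FPKM, with L5 worker replicate 2 the lowest and L1 replicate 2 the highest.

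The rule put the same floor on every L1 and L3 pair and set no limit on the differences among these larvae, which were tested. The floor did leave out models that were low in any 1 of these pairs, which favours early ratios that are alike. The absence of calls among these larvae is therefore not read as a trait of the 29. At L5 the rule put 1 floor on the sum over both castes, which bears on the caste difference as said there. Enrichment (IP minus input on the log2(FPKM + 1) scale, scaled to the typical model) was compared with limma over all 10391 tested models, with p-values adjusted over all of them. Between L3 queens and L3 workers no difference passed an adjusted p of 0.05, in 0 of the 29 models and 0.00% of all models. At an unadjusted p under 0.05 it was again 0 of the 29, and 0.962% of all models. The log2 difference of the 29 had a median of -0.03 and ranged from -0.81 to 0.24, where the median of all models was 0.02. The median SE of this difference over the 29 was 0.46. That SE comes from a spread pooled over all 20 libraries, the L5 ones included, and is not the spread of the L3 replicates alone. The lowest value belonged to GB44411, with L3 ratios of 4.76 and 5.96 in queens against 9.51 and 11.6 in workers, groups that did not overlap, and a log2 difference of -0.81 ± 0.42 (SE, 2 IP and 2 input libraries per kind of larva, limma adjusted p = 1). The scaled queen and worker ratios did not overlap for 9 of the 29 with queens higher and 9 with queens lower, where all models had 26.5% and 18.5%. This split turned on the scaling: on ratios as deposited it was 0 with queens higher and 15 with queens lower, against 8.55% and 39.0% of all models.

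From L1 to L3 the 29 models also gave no call. In queens against L1 the adjusted p passed for 0 of the 29 and 0.00% of all models by limma, and the unadjusted p for 0 of the 29 and 0.934% of all. In workers against L1 it passed for 0 of the 29 and 0.0192% of all models, and the unadjusted p for 0 of the 29 and 1.24% of all. The log2 differences had medians of -0.02 in queens (-0.58 to 0.52) and 0.01 in workers (-0.28 to 0.63). GB41655 (Group14.15, 188231 to 191780, minus strand) had the highest value in queens, with ratios of 4.12 and 4.76 at L1 against 7.04 and 6.58 in L3 queens, while its IP was 48.5 and 42.1 FPKM against 123 and 108. Only 2 libraries stand in each group, and a missed threshold does not show that the larvae were alike.

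At L5 the difference between castes had 1 direction in all 29 models, but none passed the threshold. The choice of models favours this direction: the rule summed the 4 L5 pairs, and 16 of the 29 met it only with L5 worker replicate 2. The values are therefore a description, and nothing is read from their counts against those of all models. Enrichment was lower in L5 queens than in L5 workers for all 29, by -1.55 to -0.09 log2 units with a median of -0.85, where the median of all models was 0.02, and 0 of the 29 passed an adjusted p of 0.05 by limma, where 0.106% of all models did. At an unadjusted p under 0.05, 9 of the 29 were lower in queens and 0 higher, against 4.24% and 4.32% of all models. The scaled queen ratios lay below the worker ratios without overlap for 16 of the 29 and above them for 0, against 14.6% and 19.6% of all models. On ratios as deposited these counts were 19 and 0, against 25.1% and 10.6%. GB48490 (GroupUn524, 123 to 932, plus strand) had the lowest p, with ratios of 1.69 and 2.12 in queens against 2.97 and 6.27 in workers and a log2 difference of -0.91 ± 0.30 (SE, 2 IP and 2 input libraries per kind of larva, limma adjusted p = 0.351).

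The size of this difference depended in large part on L5 worker replicate 2. Without its IP and input, the median was -0.24, 25 of the 29 were lower and 4 higher in queens, and 1 had an unadjusted p under 0.05, GB43477, at a limma adjusted p of 0.429. Without L5 worker replicate 1 in its place, the median was -1.42 and 7 of the 29 passed the adjusted threshold, while calls over all models went from 11 to 206. The caste difference at L5 minus that at L3 was negative for all 29, with a median of -0.76, and passed for 0 of the 29 and 0.00% of all models by limma (unadjusted p under 0.05 in 0 of the 29 and 3.81% of all). Without L5 worker replicate 2 this median was -0.25.

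**Figure D5:**
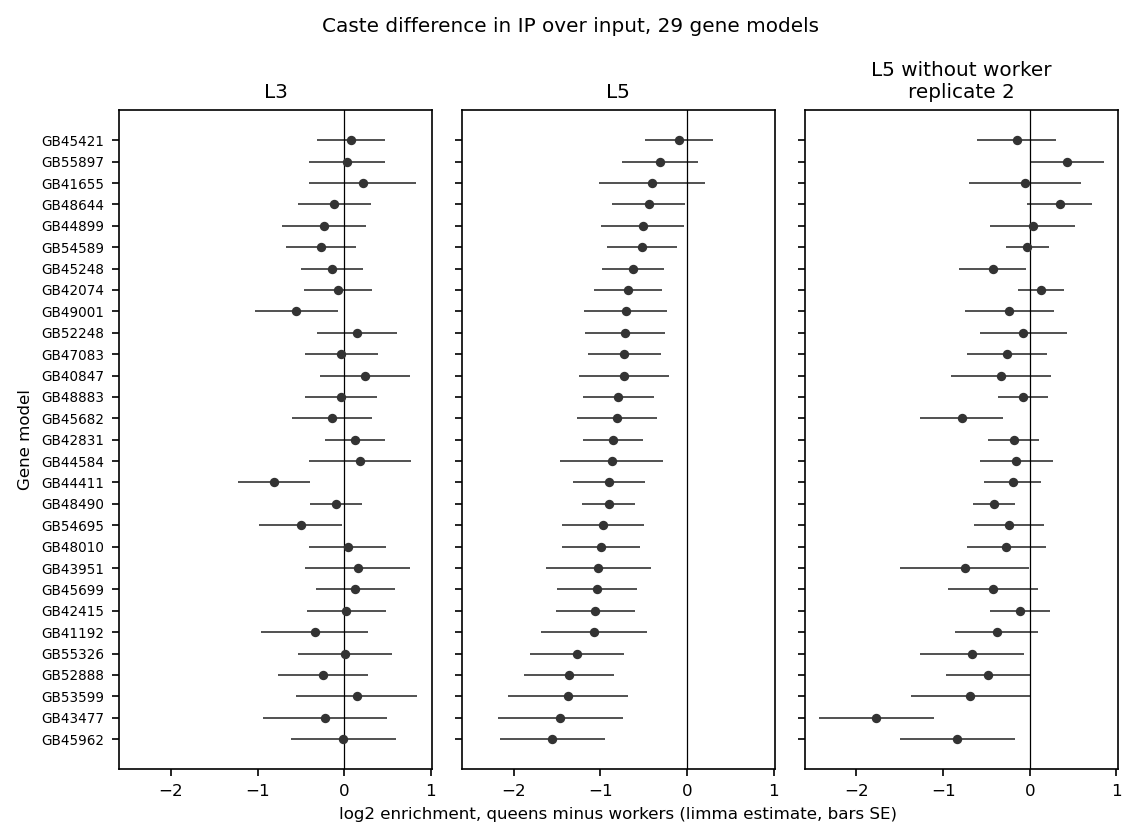
Difference in log2 enrichment between queens and workers for the 29 gene models, as limma estimates with bars of 1 SE, at L3 (left), at L5 (middle) and at L5 without worker replicate 2 (right), with the models in 1 order in all panels. The medians are -0.03, -0.85 and -0.24, and the middle panel has all 29 points left of 0.

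Enrichment at L5 was lower than at L3 for each of the 29 in both castes, as the different floors of the rule at these stages allow, and this is given as a description. The log2 difference from L3 to L5 had a median of -2.44 in queens and -1.94 in workers, where all models had 0.12 and 0.09. The rule used the ratios of both stages, so the calls of the fit are no test here and nothing is read from them. They took in all 29 in queens and 19 in workers, each lower at L5. Of all 10391 models, 1044 were called lower in queens and 735 in workers. In either direction the calls were 18.8% and 13.1% of all models. GB53599 had log2 differences of -5.02 ± 0.69 (SE) in queens and -3.51 ± 0.69 in workers. GB41192 had -4.06 ± 0.61 in queens and -3.33 ± 0.61 in workers. These calls moved when 1 replicate, its IP and input together, was left out, as did those of all models. Without L3 queen replicate 1 or 2, the queen count was 17 or 16, and 493 or 448 over all models in place of 1951. Without L3 worker replicate 1 or 2, the worker count was 1 or 2, and 57 or 49 over all models in place of 1364. It was 11 without L5 worker replicate 1 (794 over all models) and 26 without L5 worker replicate 2 (1720).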

How the data were processed

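The authors deposited 1 table per library with an FPKM value for each of 15314 gene models, per the file headers. HISAT2 2.1.0 is named in the submitters' processing notes. Which program made the FPKM, and on what build and annotation, is not given in the sources used here. Groups and replicate numbers came from the sample titles. The rule for the 29 models was applied to FPKM as deposited. These models, those named in the text and the tests were chosen with earlier results of these data known. Named were at most the 2 highest and 2 lowest models for each quantity, and the 2 on either side of each limit of the rule. The neighbours and overlapping models, and GB44411, GB48490, GB48883 and GB55326, were named after their values were seen. Genes for m6A enzymes and readers could not be located by ID, and are not reported.

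For the tests, each library was divided by its median-of-ratios factor (6947 models above 1 FPKM in every library). The 10391 models with a mean of at least 1, all 29 included, entered limma 3.58.1 (R 4.3.3, eBayes with trend) as log2(FPKM + 1), a scale that understates differences of low models. There was no replicate block, the spread was pooled over all 20 libraries, and p-values were adjusted by the Benjamini-Hochberg method at 0.05. Replicates differed more at L5 than before, so a pooled spread makes L5 p-values too small and those among L1 and L3 larvae too large. Where a replicate was left out, the remaining one was assumed to vary like the other groups. In simulated data with that wider L5 spread, few calls between L3 castes were false, but most calls between L5 castes were. The simulated noise of IP and input libraries was independent, unlike the correlated deviations given next, so these shares may not hold for the data. For same-numbered IP and input libraries, deviations from their group means were compared across the tested models. Their correlation was 0.163 to 0.646 in 4 kinds of larvae and 0.0793 in L5 workers. The fit has no pairs all the same, so variation shared by such libraries stays in its spread. A replicate block within larvae, which takes it out, is among the alternatives. The IP/input ratios match libraries by their title number because the rule does. Alternatives were other scalings, pseudocounts and filters, fits of the larvae compared only, a weight per library, replicate blocks, and leaving out each replicate. Figures were drawn with matplotlib 3.10.9.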

Additional observations from a re-analysis of the deposited data

Results flagged for a closer look

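From L3 to L5 the fit across all models put 29 of the models past its threshold in queens and 19 in workers, all lower at L5. Of all 10391 models it called 18.8% in queens and 13.1% in workers in either direction, with 1044 and 735 called lower. These calls are no test for the 29 models, and nothing is read from them. The rule chose the 29 with a floor of 4 on each L3 ratio and of 2 on the summed L5 ratio, which favours lower values at L5. Among the models named, GB53599 had log2 differences of -5.02 in queens and -3.51 in workers, and GB41192 had -4.06 and -3.33. Groups of 2 libraries are too small for the check on single samples that stand apart.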

How the results depend on the processing

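The number of models that met the rule was 3 when each L5 pair had to reach a ratio of 2, and 13 to 39 when 1 replicate pair was left out. The lowest of these, 13, came without L5 worker replicate 2 and shared 11 models with the 29. Scaled FPKM gave 35 models, of which 19 were among the 29, and the input of the other number gave 23. The calls between L3 castes, from L1 to L3 in both castes and for the caste difference between instars stayed at 0 of the 29 under all 20 alternatives each. Between L5 castes the count was 0 under the 10 other alternatives, and 0 to 7 when 1 replicate pair was left out. From L3 to L5 it was 16 to 29 in queens and 1 to 26 in workers with 1 replicate pair left out, and 25 to 29 and 14 to 26 under the others. With the replicate block within larvae, these counts were 29 in queens, 26 in workers and 0 between L5 castes. With the block over all larvae they were 29, 24 and 0. Counts over all models moved more: 1951 calls from L3 to L5 in queens became 3650 with the block within larvae, 3449 with upper-quartile factors, 930 with a weight per library and 769 with the larvae compared only, and 1364 in workers became 3019 with that block and 3883 with upper-quartile factors. Between L5 castes 11 calls became 79 with that block, 92 with a pseudocount of 0.1, 89 with no filter, 1 with a mean of at least 5, and 0 with a weight or the castes alone. With 1 replicate pair left out, the counts over all models were 448 to 2424 in queens and 49 to 2191 in workers from L3 to L5, and 1 to 206 between L5 castes. Scaling moved the typical model: on FPKM as deposited the median of all models from L3 to L5 was 0.51 log2 units in both castes, and all 29 stayed below 0 in queens and at least 28 in workers under every alternative. Unknown depth limits what can be said of the L5 pairs, and 2 libraries per group limit every test.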
